A study of Mus musculus with 32 samples.

Results

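The RNA of whole cultured cortical neurons was compared between KCl-depolarized and resting cultures that expressed Pan-TurboID, a promiscuous biotin ligase without a localization signal. The libraries were those whose titles name the Pan construct and the input, that is, lysate RNA taken before any streptavidin pulldown. They were 4 depolarized Pan inputs and 4 resting Pan inputs, 8 of the 32 libraries of the series, and were paired by the replicate number of their titles. The other 24 libraries were 8 inputs of cultures with the dendritically targeted TurboID-PSD95 (PSD95 inputs), 8 Pan pulldowns and 8 PSD95 pulldowns.

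All 8 Pan cultures were primary neurons from the cortex of CD-1 mouse embryos, treated on day 12 in vitro, and carried a doxycycline-inducible lentiviral Pan-TurboID. All received cycloheximide, which blocks translation elongation, for 2 min and then biotin for 30 min, and all were UV crosslinked. Depolarized cultures were silenced for 2 h with tetrodotoxin (a sodium channel blocker) and DL-AP5 (an NMDA receptor antagonist), exposed to 55 mM KCl for 1 h and left for 30 min before harvest. The labels list the silencing and the recovery only among the depolarization steps, and do not say whether resting cultures received the silencers too. KCl, silencers and recovery therefore cannot be told apart in these data. Cycloheximide and biotin were common to both states, and no library without them was analysed here. The free-text descriptions of replicate 2 name the opposite state for both Pan inputs. Titles were followed, and results under the descriptions are given beside the main count. Under the titles, the changes of the replicate 2 pair correlated positively with those of each other pair, as given below.

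High extracellular KCl depolarizes the neuronal membrane and opens voltage-gated calcium channels. Calcium then activates kinases and transcription factors such as CREB, which induce immediate early genes within minutes and later genes over the following hours, while other messages decline. Whole-culture RNA records the sum of such changes in synthesis and decay, over the cell body and the neurites together. The deposited tables list 51884 UCSC transcript models by identifier only, and 0 of these identifiers matched the gene tables used here. No immediate early gene, pathway or cell type marker could therefore be looked up, no sequence is shown, and at most 2 transcripts in each direction are named for each comparison. In such bulk RNA, fewer cells of a type and less RNA per cell cannot be told apart.

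The 4 depolarized Pan inputs held 9417859, 8498838, 9061713 and 6877333 estimated counts in replicates 1 to 4, and the resting Pan inputs 13016833, 10093364, 5583423 and 5261715. A single transcript model of 3881 nt, uc009sgd.1, took 6.69%, 17.2%, 59.0% and 84.8% of these counts in the depolarized libraries and 2.36%, 11.5%, 44.8% and 22.5% in the resting ones. Its share was higher in the depolarized library of 3 of 4 PSD95 input pairs and 2 of 4 Pan pulldown pairs. In the Pan inputs it was higher in all 4 pairs, by 21.6 percentage points on average with an SD of 27.4. The exact two-sided sign-flip permutation test over the 4 pairs gave p = 0.13, the smallest that 4 pairs allow. Outside this and the other 2 models that averaged over 1% of counts (uc012eno.1 and uc033jng.1), 8257883, 6792474, 2911670 and 612818 counts were left in the depolarized libraries and 11834252, 8669054, 2531272 and 3415429 in the resting ones. The depolarized library of replicate 4 was thus the shallowest, and its typical fragment, read from the effective lengths, was also the longest, at 198 nt against 158, 154 and 166 nt in the other depolarized libraries and 151 to 158 nt in the resting ones. The fit nevertheless gave that library the largest quality weight among the Pan inputs, 2.24, against 0.35 and 0.42 for the depolarized and resting libraries of replicate 2. Results are therefore also given without it.

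**Figure D1:**
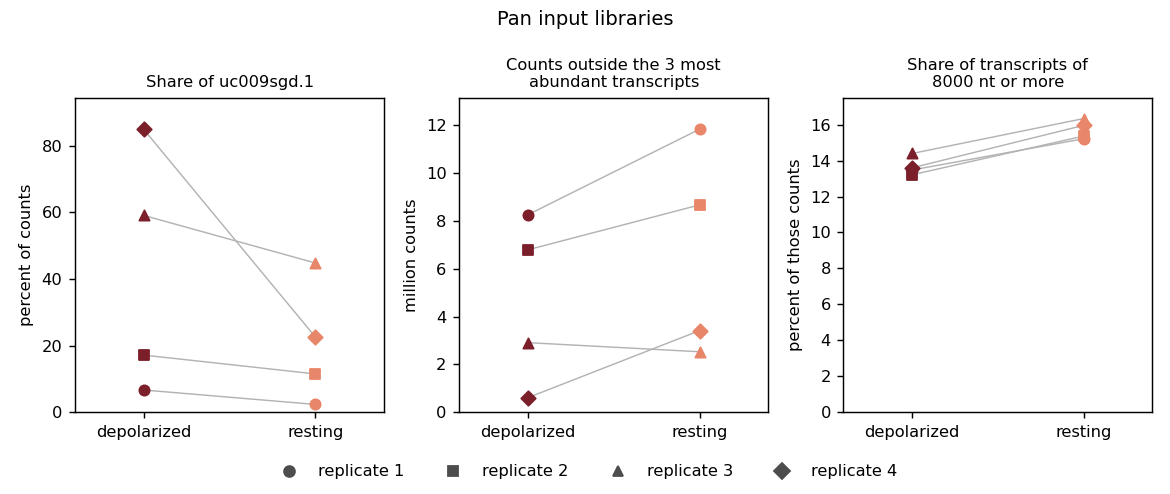
Share of all estimated counts taken by uc009sgd.1 (percent), counts outside the 3 most abundant transcripts and share of those counts in transcripts of 8000 nt or more (percent), for the depolarized and resting Pan input of each replicate, joined by a line. The share of uc009sgd.1 reached 84.8% in the depolarized library of replicate 4, and the share of long transcripts was lower in the depolarized library of all 4 pairs.

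The first question was which transcripts changed with KCl in whole-culture RNA. Of 27887 transcripts tested, 867 (3.11%) passed an adjusted p of 0.05 in limma's voom fit with quality weights and the replicate as a block. Of these, 583 (2.09%) rose and 284 (1.02%) fell in depolarized cultures. The median log2 change over all tested was -0.03. At an unadjusted p under 0.05 there were 4793. The median size of the log2 change was 0.96 among rising transcripts and 0.84 among falling ones. A change of at least 2-fold was fitted for 286 rising and 114 falling transcripts, and of at least 4-fold for 147 rising and 57 falling ones. Of those past 4-fold, 38 rising transcripts had no count in any resting Pan input and 22 falling ones had none in any depolarized Pan input. Set against a floor of 3 counts over the group, they differed by at least 3.79 and at least 4.01 on the log2 scale. As fitted values or as bounds they lay above the medians, so the medians of 0.96 and 0.84 could not change. The direction was the same in 4 of 4 pairs for 478 rising and 258 falling transcripts. The same pairs entered the calls, so this was partly built into the selection, and the share over all tested was not taken.

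The size of this list depended on the replicates and on the test. Without replicate 1 it held 6 transcripts, without replicate 2 it held 203, without replicate 3 it held 88 and without replicate 4 it held 293. Without the depolarized library of replicate 4 alone it held 495. edgeR's quasi-likelihood test called 83 (45 rising and 38 falling) and DESeq2 1771 (887 rising and 884 falling). With the states that the descriptions give for replicate 2, limma called 1.

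**Figure D2:**
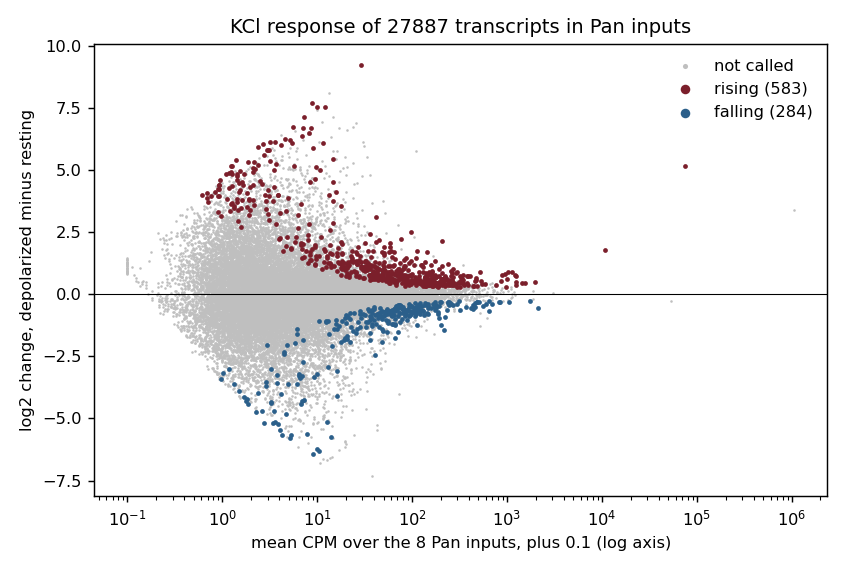
Log2 change (depolarized minus resting) against the mean CPM over the 8 Pan inputs plus 0.1, on a log axis, for the 27887 transcripts tested. The 583 rising and 284 falling transcripts that passed an adjusted p of 0.05 form a narrow band of small changes at high CPM and scattered large changes at low CPM.

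Calls were concentrated among abundant transcripts, which were also measured more precisely. Under 1 CPM, 0.618% of 2912 transcripts were called, and at 100 CPM or more 21.4% of 1234, with a median standard error of the log2 change of 1.27 and 0.11 in these classes. Of the 1234 most abundant, 185 rose and 79 fell. Few low transcripts were called, so one without a call may still have changed, and the part of depth in this was not tested.

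Among transcripts named by a rule of size, abundance and equal direction in all pairs, which left out the 3 models above 1% of counts, uc007msi.2 (1908 nt) had the smallest p of those that rose. It stood at 1593, 1344, 1097 and 1192 CPM in the depolarized Pan inputs, against 877, 734, 677 and 670 CPM in the resting ones. All 4 depolarized libraries lay above all 4 resting ones, the lowest of them at 1097 and the highest resting one at 877 CPM. The naming rule favours such separation for every named transcript, and its share over all tested was not taken. The log2 change was 0.89 ± 0.05 (SE, adjusted p = 3.32e-06), and the means were 1307 ± 217 and 740 ± 95.9 CPM (SD, n = 4 each).

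The other named rising transcript, uc007mqv.1 (5284 nt), was less abundant and changed more. It had 155, 134, 127 and 88.9 CPM in the depolarized Pan inputs and 34.01, 25.4, 31.9 and 19.1 CPM in the resting ones. The groups did not overlap, and the library with the lowest value in each state was that of replicate 4. The log2 change was 2.21 ± 0.14 (SE, adjusted p = 1.03e-05), with 2.21, 2.39, 1.95 and 2.17 in the 4 pairs. Its 84 counts in the depolarized library of replicate 4 were the fewest behind any of these 8 values.

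Of the transcripts that fell, uc008thw.1 (3354 nt) had 173, 153, 142 and 138 CPM in the depolarized Pan inputs, against 335, 317, 256 and 280 CPM in the resting ones. Depolarized libraries were lower in every pair, and none reached the lowest resting one. The log2 change was -0.93 ± 0.07 (SE, adjusted p = 3.68e-05). The longer uc009plj.1 (6364 nt) had 99.9, 139, 130 and 119 CPM in the depolarized Pan inputs and 311, 288, 319 and 343 CPM in the resting ones. It changed by -1.42 ± 0.10 on the log2 scale (SE, adjusted p = 3.68e-05). Under the states of the descriptions none of the 4 passed, with adjusted p between 0.191 and 0.340, and without replicate 1 uc009plj.1 missed the threshold at 0.0558. A share of the reads of all 4 models was divided with other models by the quantification, so each value may include reads of another model of the same gene.

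**Figure D3:**
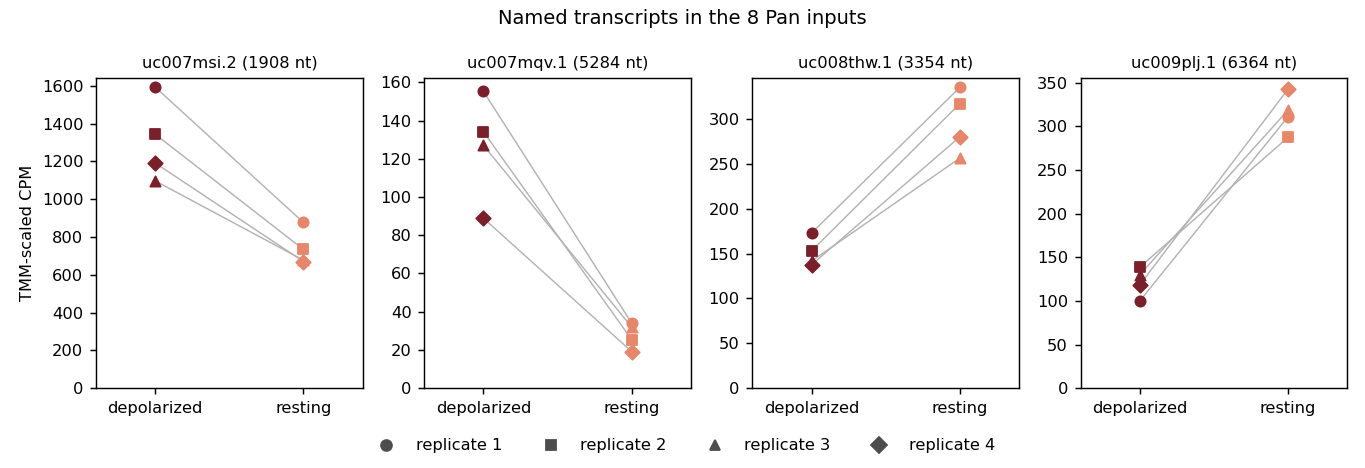
TMM-scaled CPM of the 4 named transcripts in the depolarized and resting Pan inputs, with a symbol for each replicate and a line for each pair. In each panel all 4 depolarized libraries lie on one side of all 4 resting ones, which the choice by small p and equal direction in these libraries favours.

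The most abundant models behaved unevenly among replicates. The share of the 123 nt model uc033jng.1 was higher in the depolarized library of 2 of 4 PSD95 input pairs and 2 of 4 Pan pulldown pairs. This model took 2.58%, 1.38%, 4.48% and 5.64% of counts in the depolarized Pan inputs and 1.60%, 0.90%, 3.07% and 1.16% in the resting ones, higher in all 4 pairs. On the TMM scale the pairs differed by 0.82, 0.76, 1.07 and 5.13 log2, and the fit returned 5.16 ± 0.11 (SE, adjusted p = 9.68e-11), close to the pair of replicate 4. Without the depolarized library of replicate 4 the change was -0.11 (adjusted p = 0.973), and without both libraries of replicate 4 it was 0.98 (adjusted p = 0.691). For uc009sgd.1 the pairs differed by 1.63, 0.71, 0.92 and 4.76, and the fitted 3.40 ± 0.89 did not pass (adjusted p = 0.0641). It was 0.87 (0.579) without the depolarized library of replicate 4, 1.45 (0.160) without both libraries of replicate 4, and 2.93 (0.0491) when only whole estimates were tested. The 334 nt model uc012eno.1 took 3.05%, 1.53%, 4.35% and 0.64% in the depolarized libraries and 5.12%, 1.70%, 6.83% and 11.4% in the resting ones, lower in all 4 pairs, with a fitted change of -0.26 ± 0.18 (adjusted p = 0.527). The identity of these 3 models was not given by the tables, so their place among ribosomal, mitochondrial or vector RNA was not tested.

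Length divided the calls. Rising transcripts had a median length of 2604 nt and falling ones 5468 nt, against 2932 nt for all tested. From 300 to under 1000 nt, 78 of 1750 transcripts rose and 1 fell. From 1000 to under 2000 nt, 136 of 5807 rose and 12 fell. From 2000 to under 4000 nt, 229 of 12013 rose and 67 fell. The directions were near equal from 4000 to under 8000 nt, with 116 of 7131 rising and 131 falling. At 8000 nt or more the order was turned, with 23 of 1073 rising (2.14%) and 73 falling (6.80%, against 1.02% over all tested). These longest transcripts were also measured with a smaller median standard error, 0.46 against 0.72 to 0.79 in the classes from 300 to under 8000 nt. Under 300 nt only 1 of 113 was called.

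The same was asked without calls, in the 6062 transcripts that averaged at least 200 counts over the 8 Pan inputs. For each pair, the median log2 change of a length class was taken relative to the median of all 6062. The 554 transcripts of 8000 nt or more shifted by -0.27, -0.27, -0.21 and -0.18 in replicates 1 to 4, a mean of -0.23 ± 0.04 (SD, n = 4). The 295 transcripts under 1000 nt shifted by 0.27, 0.22, 0.28 and 0.02, a mean of 0.20 ± 0.12. All 4 pairs had the same sign in each class, and the exact sign-flip permutation test gave p = 0.13, the smallest possible. The classes between were ordered by length, at 0.17, 0.05 and -0.09. The share of counts outside the 3 dominant models that fell on transcripts of 8000 nt or more was 13.5%, 13.2%, 14.4% and 13.6% in the depolarized libraries and 15.2%, 15.4%, 16.3% and 15.96% in the resting ones, with no overlap.

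Fragment length also differed between the libraries of a pair. It was longer in the depolarized library of replicates 2, 3 and 4, by 0.31, 14.5 and 43.7 nt, and shorter by 0.36 nt in that of replicate 1. After division by each library's effective length, which takes the fragment length into account, the mean shifts were 0.23 under 1000 nt and -0.24 at 8000 nt or more. The part of fragment length in the shift was not tested further.

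**Figure D4:**
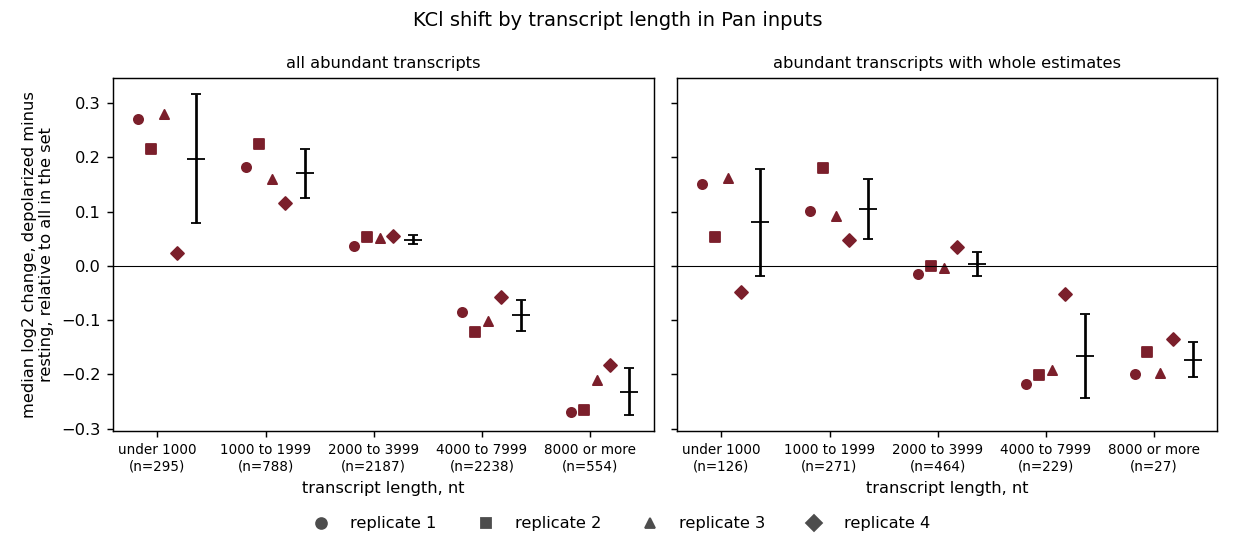
Median log2 change (depolarized minus resting) of 5 length classes relative to all transcripts of the set, in the 4 Pan pairs (symbols) with the mean and SD (bar), for all 6062 abundant transcripts (left) and for the 1117 with whole estimates (right). Classes under 4000 nt had means above 0 and those from 4000 nt below 0 in both panels, and the pair of replicate 4 lay below 0 for whole estimates under 1000 nt.

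How reproducible single changes were depended on whether reads were divided among models. The quantification splits a read that fits several models, which leaves fractional estimates. In 1117 of the 6062 abundant transcripts the estimate was within 0.001 of a whole number in every Pan input. Across these, the log2 changes of pairs of replicates correlated at r = 0.40 to 0.63 (mean 0.53 over 6 combinations). The pair of replicate 2 correlated positively with each of the others under its titles (0.53, 0.48 and 0.40). With the states of the descriptions, which swap both libraries of that pair, each of these would change sign. Across the 4945 fractional ones r was 0.06 to 0.17 (mean 0.11). These are descriptions over transcripts, which are not independent and share library and depth. The SD of the changes was 0.43 to 0.62 in the 4 pairs for whole transcripts and 0.95 to 2.16 for fractional ones. Of the tested transcripts, 5.86% of 3736 whole ones were called (173 rising and 46 falling) and 2.68% of 24151 fractional ones (410 rising and 238 falling). Tested on their own, 565 of 3770 whole transcripts passed, with 345 rising and 220 falling. Among whole transcripts the length shift was -0.17 ± 0.03 at 8000 nt or more (n = 4 pairs, 27 transcripts, all pairs negative) and 0.08 ± 0.10 under 1000 nt, where the pair of replicate 4 was at -0.05.

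A change seen in 3 replicates could be followed into the one left out. Each time, the 100 rising and the 100 falling transcripts with the smallest p in the fit without that replicate were taken, among those averaging at least 4 CPM over the 8 Pan inputs. In the pair left out, 94, 93, 92 and 93 of the rising sets were higher in the depolarized library, when replicates 1 to 4 were left out, against 50.3%, 46.2%, 48.0% and 39.5% of all transcripts past that level. Of the falling sets, 81, 92, 89 and 95 were lower, against 49.7%, 49.8%, 49.0% and 57.2% of all.

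Few transcripts were present in one state alone. Those with at least 10 counts in all 4 depolarized Pan inputs and none in any resting one numbered 5, and the reverse pattern was found for 26. None of these 31 had whole estimates. Since the shallow depolarized library of replicate 4 limits such counts, they were repeated without that replicate and gave 51 and 86, of which 2 and 1 had whole estimates. At least 10 counts in every library of the state were found for 8146 transcripts in depolarized and 13516 in resting Pan inputs, and without replicate 4 for 13712 in depolarized and 14769 in resting ones.

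The second question was whether the response was shared with the PSD95 cultures, which were separate cultures transduced with TurboID-PSD95, treated alike and harvested with the same replicate. In the PSD95 inputs 556 of 27887 transcripts were called (1.99%), with 252 rising (0.904%) and 304 falling (1.09%). Of the 583 that rose in Pan inputs, 509 (87.3%) had a mean change above 0 over the 4 PSD95 pairs, where 52.1% of all tested had one, and 142 were called as rising there and 5 as falling. Of the 284 that fell in Pan inputs, 255 (89.8%) were below 0 in the PSD95 pairs against 47.9% of all tested, with 91 called as falling and 1 as rising. The median change was smaller in the PSD95 pairs, 0.38 against 0.89 in the Pan pairs for rising and -0.41 against -0.87 for falling transcripts. The Pan contrast selected the lists, but in a fit that also used the PSD95 inputs for its spread, replicate effects and filter. The difference in size is therefore not a comparison of the cultures, and the shared direction is not fully separate from the selection.

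Large changes in Pan inputs were then set beside the PSD95 pairs, with and without divided reads. The 56 whole transcripts that rose at least 4-fold had median log2 changes of 2.76 in the Pan pairs and 2.71 in the PSD95 pairs, and 55 of them (98.2%) were above 0 in PSD95 inputs. The 91 fractional ones had 3.15 and 1.94, with 75 (82.4%) above 0. The 53 fractional transcripts that fell at least 4-fold had -3.72 in the Pan pairs and -0.29 in the PSD95 pairs, with 35 (66.0%) below 0. Only 4 whole transcripts fell at least 4-fold, with -2.60 in the Pan pairs and -1.36 in the PSD95 pairs, and 2 of them were lower in all 4 PSD95 pairs. Of all whole transcripts tested, 52.5% were above 0 in the PSD95 pairs, 47.5% below 0 and 11.4% lower in all 4. The sets were chosen for large changes in Pan inputs, which favours smaller ones in the PSD95 pairs. Over all abundant whole transcripts the mean changes of both constructs correlated at r = 0.68 (n = 1117), and over fractional ones at r = 0.17 (n = 4945).

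**Figure D5:**
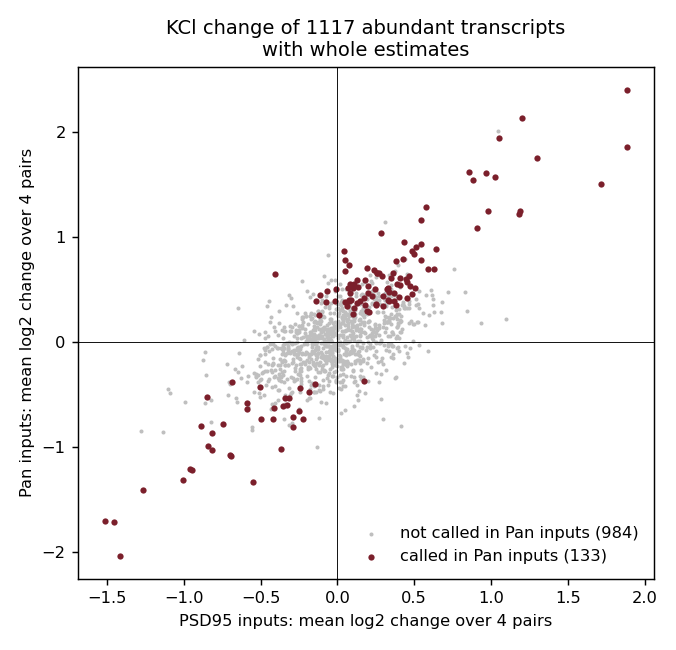
Mean log2 change (depolarized minus resting) over the 4 Pan pairs against that over the 4 PSD95 pairs, for the 1117 abundant transcripts with whole estimates. The 133 that were called in Pan inputs lie mostly in the lower left and upper right, and r was 0.68.

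The difference between the responses was tested directly. Of 27887 transcripts, 14 (0.0502%) passed in limma, 13 (0.0466%) with a higher log2 change in Pan inputs and 1 (0.00359%) with a lower one, and 2604 had an unadjusted p under 0.05. edgeR called 0 (1059 at an unadjusted p under 0.05) and DESeq2 563. Without replicate 1 or 2 limma called 0, without replicate 3 it called 2 and without replicate 4 it called 6. Among transcripts with whole estimates it called 0 of 3770, with 420 at an unadjusted p under 0.05. Of the 13, 8 had the same sign in all 4 replicates. The transcript with the smallest p of those with equal sign in all 4, uc007qbd.1 (1922 nt), had 1533, 1291, 991 and 884 CPM in the depolarized and 911, 715, 526 and 703 CPM in the resting Pan inputs. In the PSD95 inputs it had 1209, 1043, 939 and 997 CPM in depolarized and 1103, 775, 646 and 1059 CPM in resting libraries. The depolarized library was thus the higher one in all Pan pairs and in 3 of 4 PSD95 pairs, and the difference in log2 change was 0.68 ± 0.07 (SE, adjusted p = 0.00428), with 0.63, 0.43, 0.40 and 0.35 in the 4 replicates. It did not pass without replicate 1, 2 or 3, with adjusted p of 1.000, 0.633 and 0.0743.

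The other named differences rested on replicate 1. The 325 nt model uc029six.1 had 3699, 671, 344 and 893 CPM in depolarized and 2018, 704, 143 and 608 CPM in resting Pan inputs, against 1391, 506, 203 and 1192 CPM in depolarized and 3208, 1053, 203 and 759 CPM in resting PSD95 inputs. The fitted difference was 2.01 ± 0.12 (SE, adjusted p = 3.06e-05), but the replicates gave 2.09, 0.99, 1.28 and -0.17, and without replicate 1 the fit gave -0.089 (adjusted p = 1.000). uc007htk.2 (4731 nt) had 3.25 CPM in the depolarized and 47.2 CPM in the resting Pan input of replicate 1 and 0 in the 6 others. In the PSD95 inputs it had 40.2, 0, 0 and 0.78 CPM in depolarized and 19.6, 0.70, 0 and 0 CPM in resting libraries. The fitted difference was -4.46 (adjusted p = 0.0469), and the replicates gave -4.79, 2.11, 0 and -2.22.

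The share of counts on transcripts of 8000 nt or more was lower in the depolarized library of all 4 PSD95 pairs too. It averaged 14.4% against 15.4% at rest, and in Pan pulldowns 13.8% against 15.1%, again lower in all 4 pairs. By the median shift of a length class, PSD95 inputs were less clear. Their abundant transcripts of 8000 nt or more shifted by -0.08, 0.04, -0.22 and -0.07, a mean of -0.08 ± 0.10 (SD, n = 4), and those under 1000 nt by 0.22, 0.02, 0.02 and -0.05, a mean of 0.05 ± 0.12. The Pan shift minus the PSD95 shift was above 0 in all 4 replicates under 1000 nt (mean 0.15 ± 0.10, exact sign-flip permutation p = 0.13, the smallest possible) and below 0 in 3 of 4 at 8000 nt or more (-0.15 ± 0.13, p = 0.25). Among whole transcripts of 8000 nt or more, the shifts were -0.17 ± 0.03 in Pan and -0.18 ± 0.06 in PSD95 inputs, and their difference was 0.0028 ± 0.043. Among whole transcripts under 1000 nt the difference was 0.051 ± 0.088, above 0 in 3 of 4 replicates (exact sign-flip permutation p = 0.375).

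The third question was whether the RNA bound to biotinylated protein changed as the lysate it came from did. Pan pulldowns were made from the same lysates as the Pan inputs, so the sets of libraries share cultures and agreement between them is not independent. In Pan pulldowns 2463 of 34696 transcripts (7.1%) were called, 1262 rising (3.64%) and 1201 falling (3.46%). The rising transcripts of the Pan inputs had a median change of 0.60 in the pulldown pairs and 0.89 in the input pairs, and 339 of 583 were called as rising and 3 as falling in pulldowns. The falling ones had -0.59 in the pulldown pairs and -0.87 in the input pairs, and 191 of 284 were called as falling and 0 as rising.

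The test of the difference between pulldown and input found 5 of 34696 transcripts (0.0144%), 2 (0.00576%) with a higher log2 change in the pulldown and 3 (0.00865%) with a lower one, and 2602 at an unadjusted p under 0.05. edgeR called 1 and DESeq2 610. Without replicate 2 limma called 2, and without replicate 3 it called 0 (2668 at an unadjusted p under 0.05). The most abundant of those named, uc007xok.1 (1591 nt), had 1470, 1530, 1153 and 1225 CPM in depolarized and 1214, 891, 829 and 1274 CPM in resting pulldowns, against 2865, 2406, 2382 and 1948 CPM in depolarized and 2162, 1392, 1274 and 1466 CPM in resting inputs. The depolarized library was the higher one in 3 of 4 pulldown pairs and in 4 of 4 input pairs. The fit gave a difference of -0.43 ± 0.04 (SE, adjusted p = 3.57e-06), and the replicates gave -0.13, -0.032, -0.40 and -0.43. With the lysate that pulldown and input share as the block, it was -0.073 (adjusted p = 0.843), with RLE size factors -0.087 (0.549), without replicate 4 -0.089 (0.796) and without replicate 1 -0.80 (7.02e-07). Without replicate 2 or 3 the adjusted p was 0.0986 or 0.361.

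A low transcript, uc012fww.1 (2255 nt), went the other way. It had 5.62, 0.47, 0 and 0 CPM in depolarized and 11.2, 7.03, 7.39 and 7.13 CPM in resting Pan inputs. In the pulldowns it had 18.3, 28.5, 9.42 and 11.5 CPM in depolarized and 9.06, 12.003, 11.5 and 11.1 CPM in resting libraries. All depolarized inputs were below all resting inputs, and the pulldowns overlapped. The choice by small p favours such separation, and its share over all tested was not taken. The PSD95 inputs averaged 6.14 CPM depolarized and 5.54 CPM resting (limma log2 change -0.16, adjusted p = 0.921). Its estimates were fractional, so reads were divided with other models. The difference between pulldown and input was 4.52 ± 0.77 (SE, adjusted p = 0.0306). It was above 0 in all 4 replicates, on 64, 5, 0 and 0 counts in the depolarized inputs. It did not pass with the lysate block (adjusted p = 0.115) or without any 1 replicate (0.167 to 0.361). For uc009ozx.3 (2104 nt) the fitted -0.42 (adjusted p = 0.00652) was close to the -0.43 of replicate 1, while the other replicates gave -0.10, -0.08 and -0.13. uc029six.1 had 1.26 (adjusted p = 0.00652) in the fit and 1.24, 1.54, -1.80 and -0.02 in the replicates.

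Short transcripts shifted further in the pulldowns than in the inputs, by 0.46 ± 0.23 against 0.20 ± 0.12 under 1000 nt. The shift was larger in the pulldown in 3 of 4 replicates, by 0.28, 0.53, -0.03 and 0.28 (exact sign-flip permutation p = 0.25). At 8000 nt or more the shifts were -0.20 ± 0.12 in pulldowns and -0.23 ± 0.04 in inputs, and their difference of 0.03 ± 0.09 had either sign.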

How the data were processed

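Per the labels, input RNA (15% of each lysate by the study's methods) was ribosome-depleted and sequenced as stranded TruSeq libraries on an Illumina NovaSeq. The authors quantified it with salmon (version not given in the sources used here) on mm10 UCSC knownGene models. The deposited tables give estimated counts, TPM, and length and effective length in nt as other values. TPM was not used in tests, since 1 short model held much of it. Every deposited model was kept, whereas the study kept the longest per gene.

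Estimated counts were rounded, filtered with filterByExpr and scaled by TMM. limma 3.58.1 (voomWithQualityWeights, group plus replicate, Benjamini-Hochberg, adjusted p of 0.05) was fitted to the 16 inputs, or to all 32 libraries where pulldowns entered. edgeR 4.0.16 and DESeq2 1.42.0 were alternatives, in R 4.3.3. All were tested on simulated data without replicate effects. There DESeq2 also called unchanged transcripts. The other tools called no unchanged ones but recovered few of the changes put in, so the simulation does not rank the tools. CPM values are TMM-scaled over 32 libraries. Per-pair log2 changes used a prior count of 2.

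The study's methods state that samples of 1 biological replicate were processed together. Residuals from the mean of each state correlated at 0.18 on average (0.08 to 0.34) between same-numbered depolarized and resting inputs. The -0.06 between those of different numbers is largely tied to this value by the centring, and is not a separate contrast. No 2 libraries of a group were duplicates (chi-square per degree of freedom of at least 53.6 over 12 comparisons).

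Named transcripts, outside the models above 1% of counts, were called, averaged at least 4 CPM, changed by at least 0.5 log2 in 4 of 4 pairs, and had the smallest p, 2 per direction (for difference tests, any called, by p). Those models were named for their share, with their fitted changes added after their values were seen. Members and lists were chosen with earlier results of these data known. Gene lists and markers could not be matched and were not run. Counting error only is covered by floors. Sign-flip p-values take the 4 pairs as the unit. The fits take each library as an observation with the replicate as a block. In fits with pulldowns, the pulldown and input of a lysate thus count separately.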

Additional observations from a re-analysis of the deposited data

Results flagged for a closer look

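Several values stood apart from the 3 others of their group of 4 Pan inputs. The rule flags about 1 in 20 sets by chance, for unselected values only. Many sets here were of transcripts picked from the same data, so that rate does not apply to them. Of 45 sets of 4 values examined, 6 had such a value. They were uc029six.1 at 3699 CPM in the depolarized library of replicate 1, uc007htk.2 at 3.25 CPM in the depolarized and 47.2 CPM in the resting library of replicate 1, with 0 in the others, uc012fww.1 at 5.62 CPM in the depolarized and 11.2 CPM in the resting library of replicate 1, and uc033jng.1 at 40827 CPM in the resting library of replicate 3. Of the 6, 5 were in replicate 1, the most deeply sequenced outside the dominant models.

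Some responses differed from another set of libraries by the test of the difference itself. Against PSD95 inputs, the differences in log2 change were 2.01 for uc029six.1, 0.68 for uc007qbd.1 and -4.46 for uc007htk.2. In Pan pulldowns against Pan inputs they were 1.26 for uc029six.1, 4.52 for uc012fww.1, -0.43 for uc007xok.1 and -0.42 for uc009ozx.3. The sign was the same in 4 of 4 replicates for uc007qbd.1, uc012fww.1, uc007xok.1 and uc009ozx.3 and in fewer for the others.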

How the results depend on the processing

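Depth outside the dominant models was as low as 612818 counts, and few low transcripts were called. The part of depth in this was not tested. The 4 pairs cannot give an exact p under 0.13. The main fit called 867 transcripts for the KCl response. All calls of another setting numbered 83 with edgeR, 1771 with DESeq2, 1396 with no filter, 59 with no replicate block and 1 with the states of the descriptions. In settings chosen after seeing the data, the count was 495 without the depolarized Pan input of replicate 4 and 565 with only whole estimates. Of the 216 main calls tested among whole estimates, 209 were called again there. Leaving out 1 replicate gave 6 to 293. It stayed within 1.5 times under the other 6 settings. For Pan against PSD95 inputs (14 called), edgeR gave 0, DESeq2 563, scaling by RLE 39, equal library weights in voom 58, testing without a filter 314, requiring 5 CPM on average 1, no replicate block 0, the descriptions 0, removal of the 3 dominant models 22 and whole estimates 0. Leaving out 1 replicate gave 0 to 6, and leaving out the depolarized Pan input of replicate 4 gave 16. For pulldown against input (5 called), edgeR gave 1, DESeq2 610, RLE 8, no filter 143, requiring 5 CPM on average 0, no replicate block 0, the descriptions 3, a lysate block 54, whole estimates 0 and no depolarized Pan input of replicate 4 gave 11. Leaving out 1 replicate gave 0 to 4. The cause of these changes was not tested. The fit of only the contrast's libraries is the main fit for Pan against PSD95.

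The shift of transcripts of 8000 nt or more was -0.18 at a mean count of at least 50, -0.10 under the descriptions and -0.17 for whole estimates, and -0.25 to -0.21 when 1 replicate was left out. That under 1000 nt was 0.16 to 0.25 when 1 replicate was left out and 0.090 under the descriptions and 0.080 for whole estimates, against 0.20 as reported. It was 0.18 to 0.24 under the other 5 settings. For uc029six.1 the difference between Pan and PSD95 inputs turned to -0.44 with no filter, and leaving out 1 replicate gave -0.089 (without replicate 1) to 2.02, and that between pulldown and input to -0.16 with RLE. Without the depolarized Pan input of replicate 4 the change of uc033jng.1 turned to -0.11, and under the descriptions that of uc012eno.1 was 0.00032, against -0.26. No other named transcript changed sign.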
